A study of Homo sapiens with 12 samples.

Results

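SOX7, SOX17 and SOX18, the 3 genes of the SOXF group, and SOX15, the lone mammalian gene of the SOXG group, were examined for binding by SOX2 and SOX17 in 2 human cell lines derived from testicular germ cell tumours. Their peaks were the rows of the deposited peak lists whose assigned gene was SOX7, SOX17, SOX18 or SOX15. They numbered 5 of 35302 peaks, 2 of 17795 in the SOX2 list and 3 of 17507 in the SOX17 list. SOX2 was precipitated from 2102EP cells, which are embryonal carcinoma-like, and SOX17 from TCam-2 cells, which are seminoma-like. Each ChIP group and each group of 2% input libraries held 3 libraries, 12 in all, described as biological replicates, and the labels name no treatment. Cells were fixed with a protein crosslinker and then formaldehyde, and chromatin was cut enzymatically. The authors merged the libraries of a factor into 1 list, so no value here has a replicate error, the depth reached per library is not known (25 M reads were planned for each), and no difference between the lists could be tested against replicate spread. Each line was probed with its own antibody, so effects of line and antibody cannot be told apart. The score is the authors' own, on a scale that the sources used here do not give. It ran from 6.96 to 942.8 (median 24.1) for SOX2 and from 7 to 667.67 (median 26.7) for SOX17, and is compared below only within a list, as a percentile.

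SOX proteins bind the minor groove of DNA through an HMG box and recognise a short core site, read here as CATTGT or CTTTGT. The SOXF proteins are known for roles in blood and lymphatic vessels and in endoderm. SOX17 is in addition a specifier of human primordial germ cells and is present in seminoma, where SOX2 is absent, whereas embryonal carcinoma cells express SOX2. Mouse Sox15 is known to bind with Oct3/4 at sites that Sox2 also uses in embryonic stem cells, and to act in muscle regeneration. The data therefore bear on 2 questions: whether either factor lay near its own relatives' genes, and whether SOX17 lay near the gene that encodes it.

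SOX15 was the only one of the 4 genes with a promoter peak, and the only one whose peaks overlapped between the lists. In the SOX17 list its peak lay at chr17:7590286-7590399 (hg38), with the centre 172 bp upstream of the transcription start site (TSS) of the deposited annotation, a score of 56.7 and a percentile of 84.1. In the SOX2 list it lay at chr17:7590289-7590399, 174 bp upstream of the same TSS, with a score of 45.5 and a percentile of 76.5. The 2 peaks had 111 bp in common and their centres lay 2 bp apart. By the GENCODE TSS of SOX15 (7588178 to 7590094, minus strand) the centres lay 248 and 250 bp upstream. The region is also an intron of MPDU1, a gene of dolichol-linked glycosylation that runs over SOX15 on the opposite strand and starts 6813 bp away. A peak at this position therefore cannot be credited to SOX15 rather than MPDU1 from position alone, although the SOX15 TSS is the nearer one.

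A SOX core site lay under the shared SOX15 peak, with its middle 10 bp from the centre of the SOX17 peak. This was the only SOX core site within 100 bp of the centre. No octamer site (ATGCAAAT or ATGCTAAT), no AP-2 site (GCCNNNGGC) and no SOX site directly followed by an octamer at 0 or 1 base with at most 1 mismatch was found in that window. Of all promoter-TSS peaks, 58.6% in the SOX2 list and 63.0% in the SOX17 list held a SOX core site in the same window, against 24.5% and 24.8% of windows 2000 bp to either side of all peaks. Of all RefSeq promoters of 300 bases, a longer stretch than this window, 24.5% held one. The window at SOX15 was 61.2% G and C, above the median of 49.3% for SOX2 and 53.2% for SOX17 promoter-TSS peaks.

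Peaks of the promoter-TSS class were uncommon, at 2.56% of the SOX2 and 3.32% of the SOX17 list, and 1.72% and 2.32% of the RefSeq protein-coding genes had one. Of them 33.3% of the SOX2 and 26.0% of the SOX17 promoter-TSS peaks were shared with the other list, and 149 regions were of this class in both. SOX15 was 1 of 3 genes of the 20-gene SOX family among those regions, beside SOX5 and SOX6 of the SOXD group. In the SOX17 list the 149 regions carried 147 RefSeq symbols in all, where RefSeq holds 20037 protein-coding genes. Its SOX17 percentile was higher than that of 108 of the 149 regions, whose median was 67.4. Its SOX2 percentile was higher than that of 104 of them, with a median of 56.1. In 21 of the 149 regions, SOX15 included, both percentiles were at least as high as at SOX15.

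SOX15 sits among closely spaced genes. The span between its protein-coding neighbours was 9.12 kb, in the shortest of 10 equal-sized length groups of RefSeq protein-coding loci, where 5.99% of 2003 genes had a SOX2 peak, 8.04% a SOX17 peak and 2.05% a shared peak. Across all 20037 RefSeq protein-coding genes these shares were 31.5% for SOX2, 33.5% for SOX17 and 12.0% for a shared peak. Only 0.765% of 20007 GENCODE protein-coding genes had a SOX2 peak centre nearer to their TSS than SOX15, and 1.01% a SOX17 peak centre. Within 100 kb of the SOX15 TSS the SOX2 list held 3 peaks, that of SOX15 included, and the SOX17 list held no other than that of SOX15. At least as many lay in this window for 16.9% of protein-coding genes in the SOX2 list and 71.6% in the SOX17 list. One of the SOX2 peaks was assigned to ATP1B2, which encodes a sodium pump subunit, at percentile 45.5 and 66.9 kb upstream of SOX15. It did not overlap a SOX17 peak.

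SOX18, which in people is mutated in a disorder of hair, lymphatics and small vessels, had no assigned peak in either list. Its locus is short as well, spanning 16.6 kb and falling in the same length group of loci as SOX15, where few genes had peaks. The nearest SOX17 peak lay 6.41 kb upstream of its TSS, at chr20:64055988-64056105, and was assigned to a promoter of TCEA2, which encodes a transcription elongation factor. That promoter is an internal one: the first TSS of TCEA2 lies 197 bp from that of SOX18 and is read in the opposite direction. The TCEA2 peak stood at percentile 50 of the SOX17 list, and 10.2% of protein-coding genes had a nearer SOX17 peak than SOX18. It did not overlap a SOX2 peak. Scores of the SOX17 list ran high on chromosome 20 (median 36.3 on that chromosome and 26.3 elsewhere), and among the 479 SOX17 peaks there the TCEA2 peak stood at percentile 33.7.

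The nearest SOX2 peak to SOX18 lay 49.8 kb downstream, in intron 8 of PRPF6, a splicing factor gene, and there the lists overlapped again. Its SOX17 peak (chr20:63999824-63999930) had a score of 112.67 and a percentile of 96.5, or 95.1 among the peaks of chromosome 20. Its SOX2 peak (chr20:63999794-63999916) had a score of 23.73 and a percentile of 49.3. The shared PRPF6 region thus stood high in the SOX17 list and near the middle of the SOX2 list. Both sequences are shown, as the SOX17 peaks nearest to the member without a peak of its own, on the plus strand with the SOX core site in capitals.
TCEA2 promoter: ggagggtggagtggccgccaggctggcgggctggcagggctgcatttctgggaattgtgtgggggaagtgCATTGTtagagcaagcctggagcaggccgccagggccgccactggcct
PRPF6 intron: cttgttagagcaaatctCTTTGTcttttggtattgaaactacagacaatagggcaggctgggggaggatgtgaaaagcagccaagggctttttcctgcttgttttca
The core site lay 14 bp from the centre of the TCEA2 peak and 34 bp from that of the PRPF6 peak. Each printed sequence also held 1 AP-2 site, 53 bp from the centre at TCEA2 and 30 bp at PRPF6. Within 100 bp of the centre, a window that reaches past the peak, there were 2 at TCEA2 and 1 at PRPF6. AP-2 sites lay within 100 bp of the centre in 11.9% of SOX17 and 6.42% of SOX2 peaks, against 3.72% and 3.49% of the flanking windows. Of promoter-TSS peaks, the class of the TCEA2 peak, 19.3% in the SOX17 list held an AP-2 site in that window. Of all RefSeq promoters 23.2% did, but over a longer stretch of 300 bases.

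**Figure D1:**
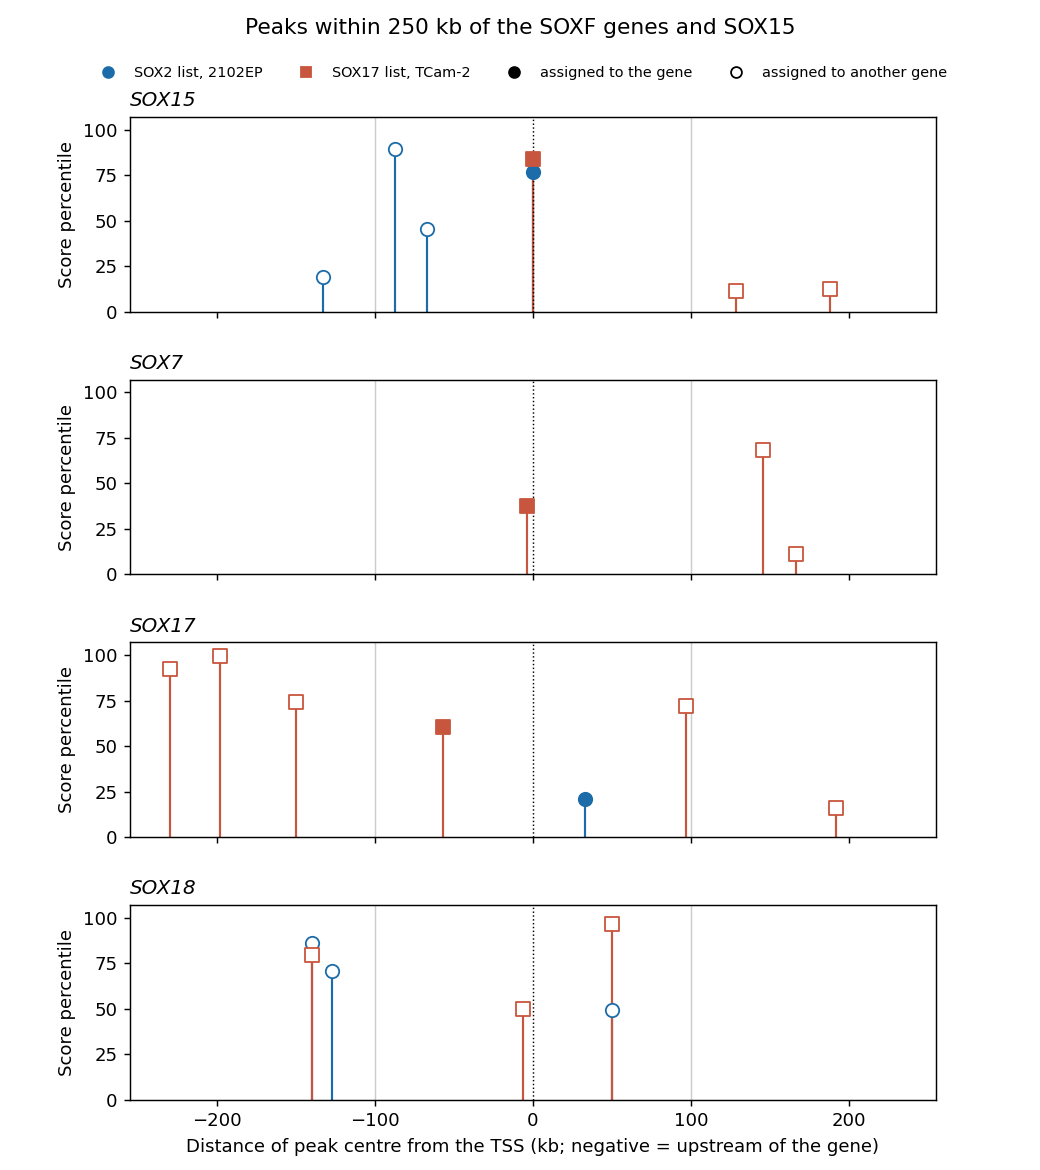
Peaks within 250 kb of the GENCODE TSS of each gene (dotted line); the horizontal axis is the distance of the peak centre in kb, negative upstream, and the vertical axis the score percentile within the peak's own list. Filled marks are assigned to the gene and open marks to another gene, circles are SOX2 and squares SOX17 peaks, and grey lines stand at 100 kb; the filled circle and square coincide in position at SOX15 alone.

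The gene SOX17 had 1 peak in each list, on opposite sides of the gene. Its SOX17 peak lay 56899 bp upstream of the TSS, at chr8:54400974-54401098, in intergenic sequence outside annotated repeats, with a score of 32 and a percentile of 60.5. Its SOX2 peak lay 32975 bp downstream of the TSS, at chr8:54490858-54490963, with a score of 14.5 and a percentile of 21.0. The SOX17 peak was above the median score of its list and the SOX2 peak below that of its own, and their centres were 89.9 kb apart. Scores on chromosome 8 ran high in the SOX17 list (median 31.3, and 26.3 elsewhere). In the SOX2 list they ran low (21.2, and 24.2 elsewhere). Ranked within the chromosome, the peaks stood at percentiles 52.2 for SOX17 and 25.9 for SOX2. The SOX2 peak lay in an LTR89 element, a class of retrotransposon repeat; LTR elements held 25.5% of all SOX2 and 22.6% of all SOX17 peaks, and none of the 3 SOX17 peaks of these genes. A SOX core site was found in the window of the SOX17 peak, 50 bp from its centre, and none in that of the SOX2 peak.

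Neither factor had a peak at the SOX17 promoter. The SOX17 locus is long, 317 kb between its protein-coding neighbours, and 57.0% of genes in the same length group had a SOX17 peak and 54.8% a SOX2 peak. A nearer SOX17 peak was found for 53.1% of protein-coding genes and a nearer SOX2 peak for 34.2%. A further SOX17 peak within 100 kb, 96.7 kb downstream, was assigned to RP1, a photoreceptor gene, at percentile 71.8. It was the only other peak in that window.

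SOX7 had a SOX17 peak and no SOX2 peak. The peak lay at chr8:10733969-10734084, 3452 bp upstream of the deposited TSS and 3515 bp upstream of the GENCODE TSS, with a score of 22 and a percentile of 37.6. It was thus closer to its gene than either peak assigned to SOX17, and below the median score of its list. The position falls in intron 1 of SOX7-AS1, a long noncoding RNA read from the opposite strand across the SOX7 TSS. By GENCODE it also falls in an intron of a gene model named PINX1 (10725399 to 10839847), which overlaps SOX7. PINX1 is a telomerase inhibitor gene. The locus length below rests on RefSeq genes, not on this model. No SOX core, octamer or AP-2 site lay within 100 bp of its centre. For 6.34% of protein-coding genes a SOX17 peak was nearer. The nearest SOX2 peak was 387 kb from the SOX7 TSS, and 96.9% of protein-coding genes had a nearer one. The SOX7 locus spanned 64.4 kb, and 23.7% of genes in the same length group had a SOX17 peak and 21.0% a SOX2 peak.

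**Figure D2:**
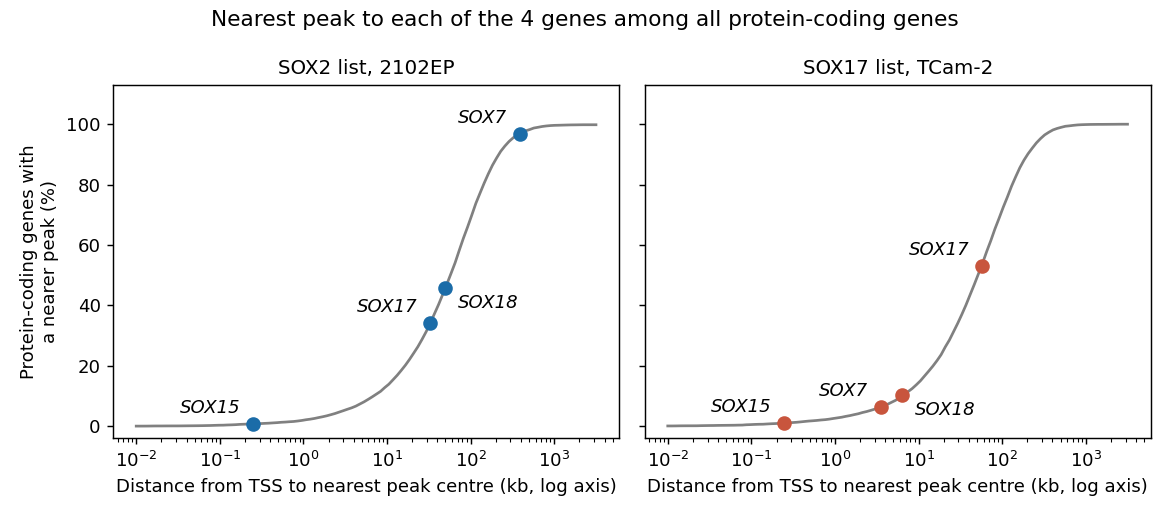
Distance from the TSS to the nearest peak centre (kb, log axis) against the percentage of GENCODE protein-coding genes with a nearer peak, for the SOX2 list (left) and the SOX17 list (right). The grey curve runs over all protein-coding genes; SOX15 lies at the lower end in both lists (0.765% and 1.01%), and SOX7 at 96.9% for SOX2 and 6.34% for SOX17.

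Taken by score, the order in the SOX17 list was SOX15 (percentile 84.1), SOX17 (60.5) and SOX7 (37.6), and in the SOX2 list SOX15 (76.5) and SOX17 (21.0). SOX15 and SOX17 stood in the same order in both lists. Because each list is a merge with no value per library, it cannot be told whether neighbours in these orders differ beyond the spread between cultures. Of the 5 peaks, those at SOX15 formed the 1 shared region, where 24.9% of all SOX2 and 25.3% of all SOX17 peaks were shared. With so few peaks this is a description of a single region. A SOX core site lay within 100 bp of the centre in 3 of the 5 peaks, the SOX15 pair and the SOX17 peak of the gene SOX17, beside 60.5% of all SOX2 and 67.1% of all SOX17 peaks. None of the 5 held an octamer or a composite SOX and octamer site. The composite with 1 base between its parts lay in 1.66% of SOX2 peaks, and the one with none in 2.77% of SOX17 peaks.

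**Figure D3:**
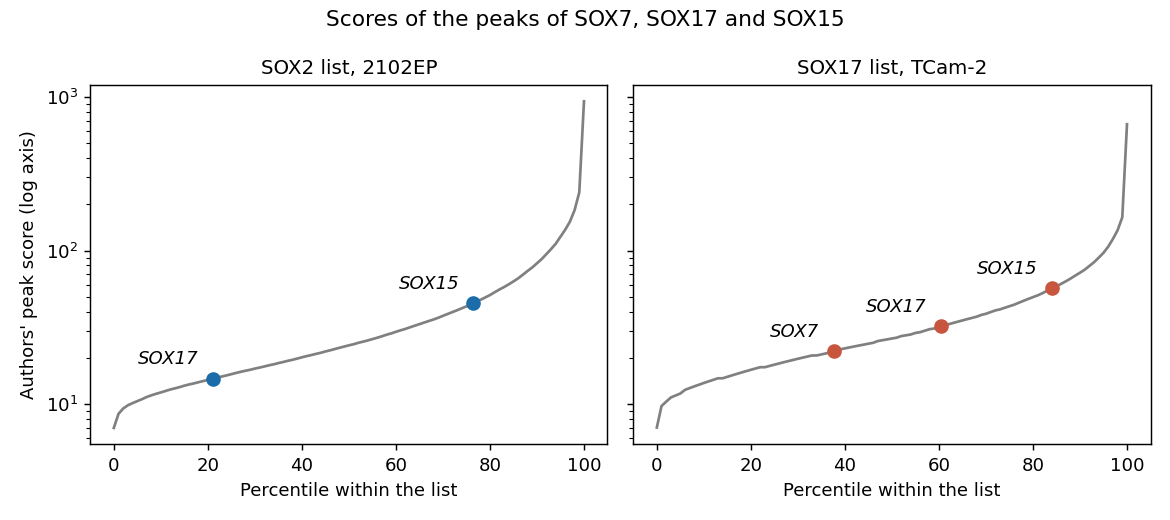
Scores of the peaks of SOX7, SOX17 and SOX15 (points) on the curve of all scores of the SOX2 list (left) and the SOX17 list (right); the horizontal axis is the percentile within the list and the vertical axis the authors' score on a log scale. SOX15 stands highest of the labelled genes in each list, at percentiles 76.5 and 84.1, and SOX18 has no point because no peak was assigned to it.

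Across the 20 human SOX genes, 11 had a SOX2 peak, 12 a SOX17 peak and 8 neither. These are 55% and 60.0% of the family, beside 31.5% and 33.5% of all protein-coding genes, and 40% had a shared peak, beside 12.0%. With only peaks within 50000 bp of the TSS counted, 10 of the 20 genes had a SOX2 peak and 8 a SOX17 peak. The higher-scoring part of each list also gave 10 and 8. No share of all genes is given for these settings. The SOXF genes and SOX15 had 1 peak per gene and list at most, where the 5 SOXB genes had 12 SOX2 and 5 SOX17 peaks and the 3 SOXD genes had 12 and 9. Low counts were not particular to them: the median over the family was 1 peak per list, the 3 SOXC genes had 3 SOX2 and 2 SOX17 peaks in all, and the 3 SOXE genes 2 and 1. Most of the family's peaks thus lay at SOXB and SOXD genes. Locus length differed widely across the family, and its part in these counts and shares was not tested. SOX5 spanned 2010 kb and had 9 SOX2 and 4 SOX17 peaks, and SOX11 spanned 2730 kb and had 1 of each. SOX13 spanned 260 kb, less than the 317 kb of SOX17, and had 1 and 3. Among genes without a peak, SOX8, SOX10, SOX12, SOX18 and SOX30 spanned 16.6 to 156 kb. SOX1, SOX21 and SRY, also without one, spanned 385 to 2130 kb. Shared peaks numbered 10 in the family, of which 3 belonged to SOXB genes, 5 to SOXD genes, 1 to SOX9 and 1 to SOX15. No SOXB gene had a promoter peak in either list. SOX15 and the SOXD genes SOX5 and SOX6 had one in both lists, and SOX15 was the only one of these in a locus below 100 kb.

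**Figure D4:**
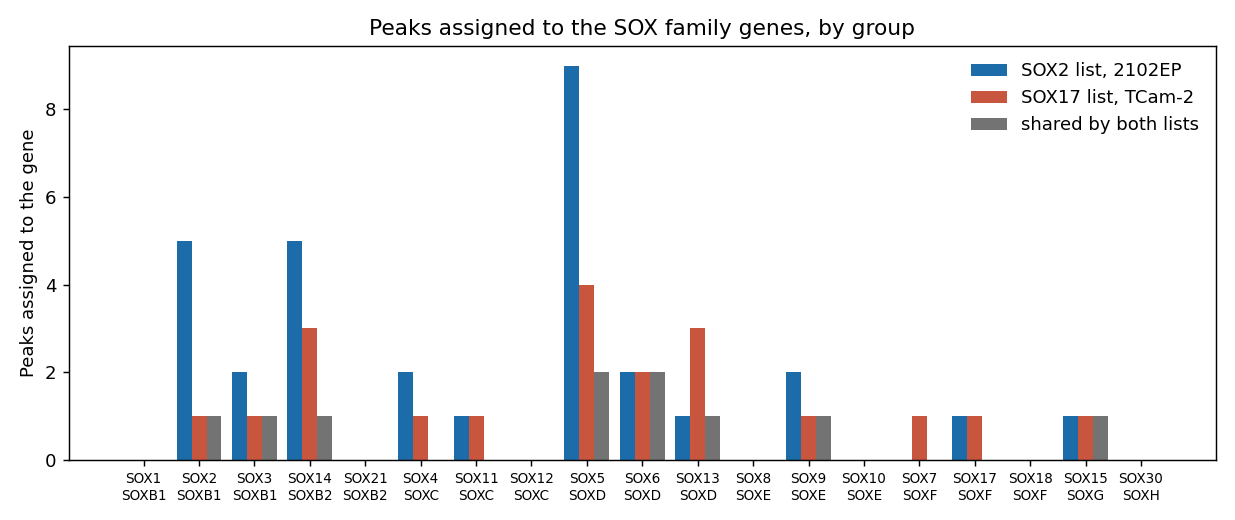
Number of peaks assigned to each SOX gene in the SOX2 list, in the SOX17 list and in both by at least 1 bp of overlap, ordered by group; SRY, with no peak in either list, is not drawn. The SOXF genes and SOX15 have at most 1 peak per list, against up to 9 at SOX5, and SOX15 is the 1 gene among them with a grey bar.

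The other SOX genes most like each of the 4 were found by the summed difference in the number of SOX2, SOX17 and shared peaks over the 2 lists. For SOX15 these were SOX9, a regulator of cartilage and testis development, SOX3, a SOXB1 gene, and SOX11, a SOXC gene, each with a summed difference of 1. SOX9 and SOX3 had a shared peak, although away from the promoter, and SOX11 had none. For the gene SOX17 the nearest was SOX11, with an equal pattern of 1 unshared peak in each list, but with percentiles of 91.3 for SOX2 and 22.5 for SOX17. The score order at SOX11 was thus the opposite of that at SOX17, whose SOX2 peak was the lower. SOX4, with 2 SOX2 peaks and 1 SOX17 peak, and SOX9 followed. For SOX7 they were SOX11, SOX1 and SOX10, each with a summed difference of 1, and SOX18 had the pattern of SOX1, SOX10 and SOX12, with no peak in either list. Outside the 4 genes, 7 SOX genes had no peak and tied with one another. SOX1, SOX10 and SOX12 were taken from them by order of name.

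Genes of the settings in which SOXF factors are known to act were counted beside the members. Of 30 endothelial and lymphatic genes 14 had a SOX2 peak and 18 a SOX17 peak, and in 5 of them a peak was shared. VWF, the von Willebrand factor gene, had 1 peak in each list, the same intronic region, 40034 bp downstream of the deposited TSS for SOX17, at percentiles 80.7 for SOX2 and 99.4 for SOX17. CDH5, the gene of VE-cadherin, had 6 peaks in the SOX17 list and 2 in the SOX2 list, at different positions. The highest of these lay in intergenic sequence, at -209282 bp from the deposited TSS for SOX17 and -312383 bp for SOX2 (negative upstream). Of 24 endoderm genes 11 had a SOX2 and 14 a SOX17 peak, with a shared peak in 3. EOMES, a T-box factor gene of early endoderm, had 2 SOX2 and 3 SOX17 peaks, 2 of each shared. Of 20 primordial germ cell genes 15 had a SOX2 peak and 15 a SOX17 peak, and 9 had a shared peak. The highest percentiles differed in order between its named genes. TFCP2L1, a naive pluripotency factor gene, reached 18.3 for SOX2 and 99.3 for SOX17, whereas KLF4, a pluripotency factor gene, reached 98.8 and 68.4. PRDM14, a germ cell regulator gene, reached 99.8 and 99.9, and NANOG, a pluripotency factor gene, 94.5 and 99.9. The KLF4 peaks with these percentiles lay at -261629 bp (SOX2) and -143737 bp (SOX17) from the deposited TSS. Those of PRDM14 lay at 93852 and 93841 bp, those of TFCP2L1 at 1377 and -58263 bp, and those of NANOG at -1656 and -3712 bp. A link of the distant peaks to the genes they were assigned to was not tested. The SOX2 shares were thus 46.7% for the endothelial, 45.8% for the endoderm and 75.0% for the germ cell list, beside 31.5% over all genes, and the SOX17 shares 60.0%, 58.3% and 75.0%, beside 33.5%. Genes with a shared peak made up 16.7%, 12.5% and 45.0% of the lists, beside 12.0% of all genes. Locus length differs between genes and its part in these shares was not tested.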

How the data were processed

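Per the series' design text, 200 µg of chromatin and 5 µg of antibody were used per immunoprecipitation, and single-end reads of 75 bp were aligned to hg38 in CLC Genomics Workbench 12 before analysis in HOMER. For the HOMER version, calling settings and use of input, nothing is stated in these sources. Per the file headers, the deposited value is a peak score of unstated scale, with 1 merged list per factor. Every peak name ends in 3 for an unstated reason. In addition, 2 lines of each list were emptied before this work.

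Computed here, with pandas 2.3.3 and pysam 0.24.0 under Python 3.11.15, were score percentiles (average rank within a list), overlaps of at least 1 bp, matches to motifs (each strand, 100 bp around the centre), and distances to GENCODE 44 TSSs. Positions were read as 1-based. The deposited TSS lay 76 bp upstream of the GENCODE one for SOX15, 63 bp upstream for SOX7 and 0 bp away for SOX17. Genes were matched to RefSeq (GRCh38.p14) by gene number. No RefSeq promoter sequence of the 4 genes was used. Overlap and motif steps were tested on simulated data. No statistical test was run. Some items near or among the named genes are not reported here. Named genes were the members, genes assigned to peaks within 100 kb of them, up to 3 SOX genes most like each, and up to 4 per list by percentile. Members and lists were chosen with earlier results of these data known.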

Additional observations from a re-analysis of the deposited data

How the results depend on the processing

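No paired analysis was possible because each list is a merge without library columns; for the same reason no replicate could be left out. Of 29 alternative values 17 did not move by more than 1.5 times (counts) or outside the 95% Wilson interval of the rank (percentiles). In the SOX family 11 genes had a SOX2 peak and 12 a SOX17 peak. These counts became 10 and 8 under each alternative setting, so their order changed. By this rule a fall from 3 to 2 peaks or from 12 to 8 genes counts as unmoved. The interval rests on the rank within a merged list and measures no spread between libraries. The shared region at SOX15 was found under each overlap rule and in the higher-scoring part of each list, and no composite site was found under any setting. Counting every peak within 100 kb of the 4 TSSs gave 5 SOX2 and 6 SOX17 peaks in place of 2 and 3. Over all protein-coding genes the mean in that window was 1.32 SOX2 and 1.42 SOX17 peaks per gene. Within 250 kb, a width chosen after seeing the data, there were 8 and 15, and no count over all genes is given for this width. Of the higher-scoring SOX2 peaks 1 was left, that of SOX15. Ranked within its chromosome, SOX15 stood at percentile 75.2 for SOX2 and 85.4 for SOX17, the gene SOX17 at 25.9 and 52.2, and SOX7 at 29.0. Among promoter peaks SOX15 stood at 80.7 and 85.4.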

Other observations

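Between 100 and 250 kb from its TSS, the surroundings of the gene SOX17 held SOX17 peaks and no SOX2 peak. The SOX2 peak described above lay nearer. Within 250 kb of its TSS, a width chosen after seeing the data, there were 6 SOX17 peaks and 1 SOX2 peak, and none overlapped. No count over all genes is given for this width. Chromosome 8 as a whole held 972 SOX17 and 754 SOX2 peaks. Of all peaks, 25.3% in the SOX17 list and 24.9% in the SOX2 list were shared. The highest of the 6 SOX17 peaks, with a score of 229.33 and a percentile of 99.7, lay 198 kb upstream (chr8:54260023-54260129). It lay in intergenic sequence outside annotated repeats, with 2 SOX core sites within 100 bp of its centre. It was assigned to RNU105C, a small nucleolar RNA gene. Another at percentile 92.4 lay 230 kb upstream and was assigned to MRPL15, a mitochondrial ribosomal protein gene. A link of these peaks to SOX17 was not tested.

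On the other side of SOX18 from PRPF6, 140 kb upstream of its TSS, both lists had a peak in intron 1 of MYT1, a neural zinc finger gene. These overlapped, with the SOX2 peak at percentile 86.2 and the SOX17 peak at 79.8 of their lists. A further SOX2 peak in the same intron, 127 kb upstream and at percentile 70.9, did not overlap a SOX17 peak. Whether any of these peaks is linked to SOX18 was not tested.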
